A study of Mus musculus with 12 samples.

Results

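Matrix metalloproteinases (MMPs) and their inhibitors were followed through an RNA-seq experiment on intestinal stroma exposed to bacterial lipopolysaccharide (LPS). The set was chosen by gene symbol, with earlier results of these data known, and held 9 of the 23329 genes listed. These were the enzymes Mmp2, Mmp3, Mmp9, Mmp10, Mmp13 and Mmp14, and the inhibitors Timp1, Timp2 and Timp3. All 9 passed the filter on low values that kept 13038 genes for testing (over 0.5 CPM in each library of some group). Mmp3 passed it only through adult LPS libraries, where it was high, and the other 8 members passed in at least 1 PBS group. The libraries came from wild-type mouse small-intestinal stromal cells, isolated from E14.5 embryos or from adults, expanded to passage 2 or 3 and cultured for 6 h with LPS of E. coli O111:B4 (10 µg/µl in the labels) or with PBS as vehicle, with 3 libraries in each of the 4 groups. The study describes 3 independent cultures per stage, with adult cultures drawn from 3 mice and every embryonic culture from a pool of 6 embryos, so that an embryonic replicate is a pool and not a single animal. The cultures were bulk and unsorted, and the study describes them as a mixed population of non-epithelial cells that included CD45+CD11b+ leukocytes.

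MMPs are zinc-dependent endopeptidases that are made as inactive proenzymes and that together can cleave nearly every protein of the extracellular matrix. Collagenases such as MMP13 cut fibrillar collagen, gelatinases (MMP2 and MMP9) digest denatured and basement membrane collagen, stromelysins (MMP3 and MMP10) have broad substrates and activate other proenzymes, and the membrane-anchored MMP14 activates proMMP2 at the cell surface. Tissue inhibitors of metalloproteinases (TIMPs) block the active enzymes, and in the gut stromal cells are a main source of both classes during inflammation and repair. The data here are transcript levels and say nothing of proenzyme activation or protein.

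Total gene counts per library ranged from 18850224 to 32672370, with the smallest in adult PBS. Levels are given as CPM, a gene's reads brought to a fixed library size after scaling between libraries. Fibroblast markers (6 genes) summed to between 7969 and 23310 CPM and smooth muscle markers (5 genes) to between 12820 and 27250 CPM over all groups. Replicate 2 had the lowest fibroblast sum in each group. It was at 8675 and 7969 CPM in embryonic PBS and LPS and at 8551 and 8163 CPM in adult PBS and LPS. All other libraries had at least 16130 CPM. In embryonic replicate 2 the smooth muscle sum was 23390 CPM with PBS and 12820 CPM with LPS. Epithelial markers (5 genes) reached at most 35.9 CPM. Mesothelial markers (4 genes) summed to 108 to 445 CPM in embryonic and 270 to 1041 CPM in adult cultures. Macrophage markers (11 of 12 listed) differed widely between embryonic cultures, with sums of 204, 305 and 2079 CPM in PBS and 134, 638 and 1299 CPM in LPS for replicates 1, 2 and 3, against 39.4 to 101 CPM in adult cultures. Endothelial markers (5 genes) summed to 1750 and 1681 CPM in the PBS and LPS libraries of adult replicate 2, to 365 and 337 CPM in adult replicate 3, to 19.5 and 13.9 CPM in adult replicate 1, and to at most 34.7 CPM in embryonic cultures. Neutrophil markers were at or near 0, with a highest sum of 0.53 CPM over 6 listed genes and S100a9 at 0 in all 12 libraries. In bulk libraries such as these, fewer cells of a type and less RNA per cell cannot be told apart.

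Mmp13, Mmp3 and Mmp10 lie in a single gene cluster on chromosome 9, where RefSeq (GRCm38.p6) places 10 MMP genes within 427 kb. Mmp13 (positions 7272514 to 7283333), Mmp3 (7445822 to 7455975) and Mmp10 (7502342 to 7510242) are all on the plus strand, with 173 kb between the starts of Mmp13 and Mmp3 and 56.5 kb between those of Mmp3 and Mmp10. The cluster was not transcribed as a block in these cultures. Mmp12, the macrophage elastase, had up to 2220 counts in a library, but Mmp7, an epithelial matrilysin, had 0 counts in all libraries, and Mmp1a and Mmp20 had 2 counts each over the 12 libraries. The other members lie on chromosome 2 (Mmp9, 164940326 to 164955850), 8 (Mmp2, 92827290 to 92853421), 10 (Timp3, 86300412 to 86349505), 11 (Timp2, 118301061 to 118355411), 14 (Mmp14, 54431598 to 54442456) and X (Timp1, 20870166 to 20874737). Timp1 and Timp3 sit within the longer genes Syn1 and Syn3 on the opposite strand, and counting by strand kept their reads apart. Timp2 encloses Cep295nl on its own strand, so reads of the sequence they share cannot be assigned with certainty.

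The 250 bases before the RefSeq start (build GRCm38.p6) are shown for Mmp13, Mmp3 and Mmp10, the members in the cluster, which were all higher with LPS in every pair. Mmp12, between Mmp13 and Mmp3, was also higher with LPS in all 3 pairs of both stages. It is not a member, and its window is not shown. Capitals mark matches to the AP-1 motif (TGANTCA) and the TATA box (TATAAA), searched on both strands.
Mmp13, chr9:7272264-7272513, plus strand: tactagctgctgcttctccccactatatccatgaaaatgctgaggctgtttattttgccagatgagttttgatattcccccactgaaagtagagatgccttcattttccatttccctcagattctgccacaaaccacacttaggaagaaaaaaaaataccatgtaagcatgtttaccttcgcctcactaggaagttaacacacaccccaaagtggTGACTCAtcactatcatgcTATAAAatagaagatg
Mmp3, chr9:7445572-7445821, plus strand: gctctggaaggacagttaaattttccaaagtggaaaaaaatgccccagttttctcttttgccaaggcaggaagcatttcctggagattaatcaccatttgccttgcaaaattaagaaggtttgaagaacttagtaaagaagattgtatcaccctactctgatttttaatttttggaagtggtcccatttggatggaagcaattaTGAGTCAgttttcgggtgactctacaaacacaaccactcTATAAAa
Mmp10, chr9:7502092-7502341, plus strand: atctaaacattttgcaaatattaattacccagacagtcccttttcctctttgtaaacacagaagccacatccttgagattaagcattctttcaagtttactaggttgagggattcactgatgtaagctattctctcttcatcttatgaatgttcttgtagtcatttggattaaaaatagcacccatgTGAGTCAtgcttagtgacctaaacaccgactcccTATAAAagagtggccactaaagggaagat
In each of the 3 windows a single AP-1 match precedes a single TATAAA. The AP-1 match begins 35 bases before the start in Mmp13, 46 in Mmp3 and 63 in Mmp10, and the TATAAA begins 16, 7 and 29 bases before it. Of 32851 RefSeq promoter windows of this length, 6.75% hold an AP-1 match and 12.4% hold TATAAA. Promoter sequence was matched for 7 of the 9 members, and the windows of Mmp14, Timp1, Timp2 and Timp3 hold neither motif. Of these, Timp1 was also higher with LPS in every pair of both stages. No window was matched for Mmp2 or for Mmp9, which was also higher with LPS in every pair. A loose NF-kB motif (GGGNNNNNCC, both strands) was found in the windows of Timp1 and Timp3, with 4 partly overlapping matches in Timp1, and 45.8% of all windows hold it. These matches are letters in a window and were not tested for binding. The 3 MMP windows are also poorer in G and C (37.2% to 40.4%) than those of the other matched members (54.4% to 68.0%).

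Transcript levels of different genes were compared per kb of exon. In adult PBS cultures the order was led by the inhibitors, with Timp3 at 926 ± 238 CPM per kb (mean ± SD, n = 3), Timp2 at 499 ± 40.5 and Timp1 at 237 ± 57.1. Mmp14 (211 ± 68.9) overlapped Timp1 between libraries, and Mmp2 followed at 95.5 ± 23.7 CPM per kb. The other 4 enzymes were far lower, with Mmp10 at 1.79 ± 0.906, Mmp3 at 1.05 ± 1.37, Mmp13 at 0.283 ± 0.227 and Mmp9 at 0.0845 ± 0.0376 CPM per kb, and each overlapped its neighbour in this order. Embryonic PBS cultures had the same division into 5 abundant and 4 scarce members. There Timp2 (360 ± 110.5), Timp3 (318 ± 144), Mmp14 (185 ± 66.8), Timp1 (136 ± 126) and Mmp2 (134 ± 39.6 CPM per kb) each overlapped the next, and Mmp3 (0.0225 ± 0.0259) was the lowest, below all libraries of Mmp13 (0.758 ± 0.594). The level of Mmp13 in embryonic LPS libraries was 44.0, 112 and 593 CPM per kb, which put it at place 6, 5 and 1 of the 9 members in replicates 1, 2 and 3, against place 8, 7 and 7 with PBS. In adult LPS libraries it was at 5.63, 12.9 and 5.27 CPM per kb, at place 7, 7 and 6, against place 8 in each PBS library.

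**Figure D1:**
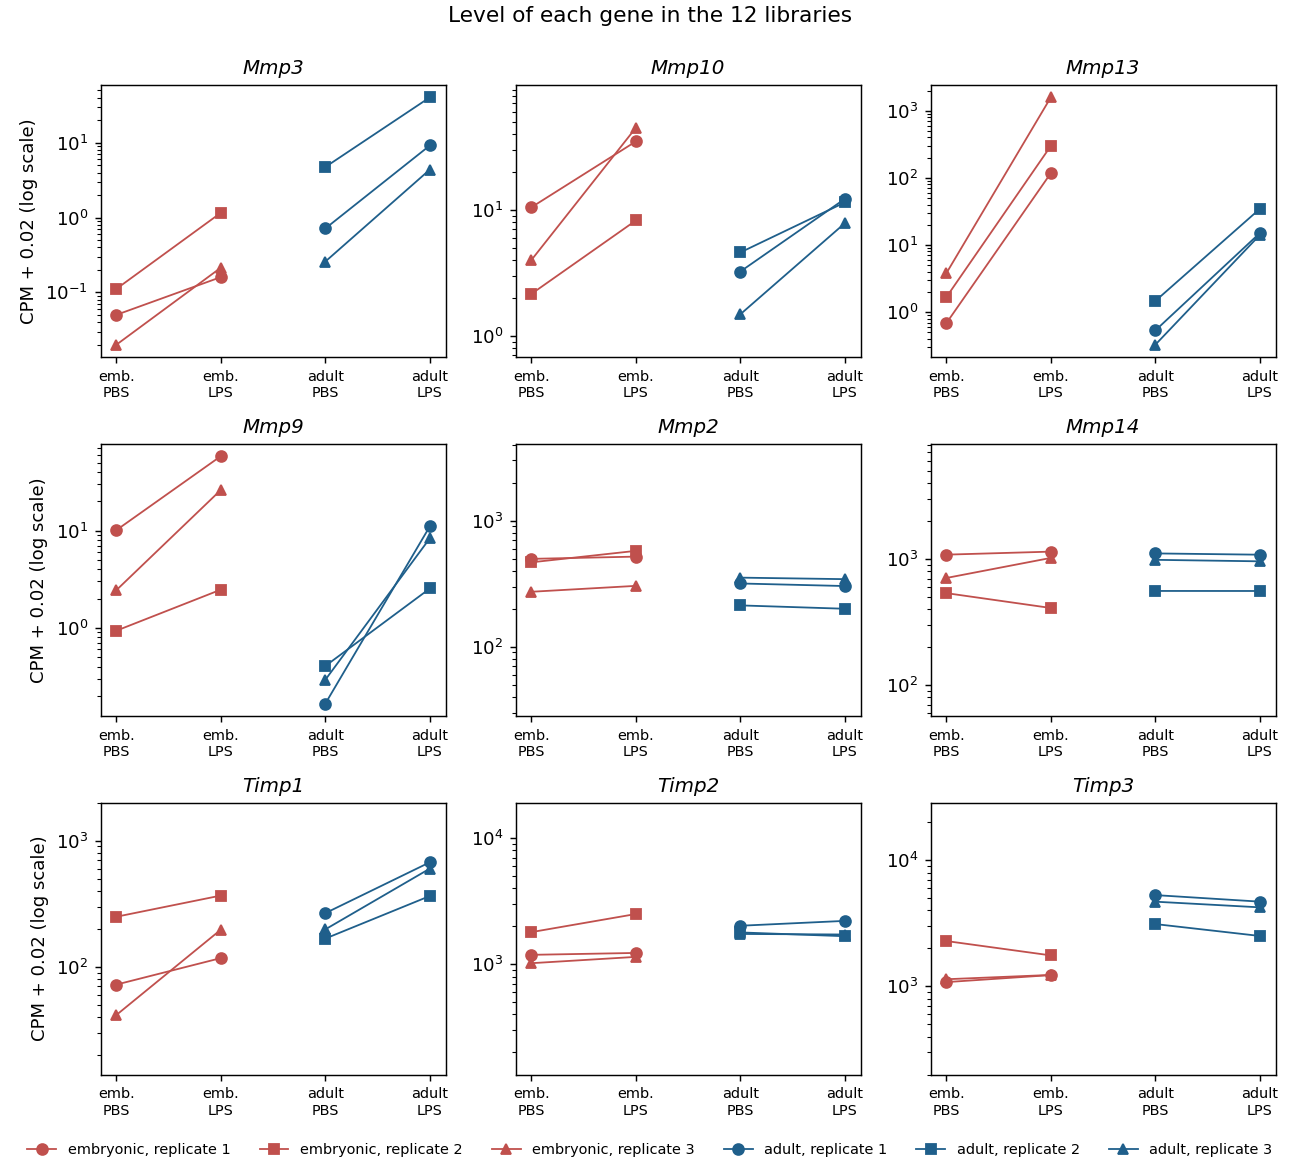
Level of each member in every library, as CPM + 0.02 on a log axis, with lines joining the PBS and LPS libraries that share a replicate number (embryonic red, adult blue). Mmp3, Mmp9, Mmp10, Mmp13 and Timp1 were higher with LPS in all 3 pairs of both stages. The pairs of Mmp2, Mmp14, Timp2 and Timp3 changed by 0.762-fold to 1.44-fold. Panels with a small range of levels have a widened axis, on which such changes look flat.

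To learn which of these genes responded to LPS, the groups were compared within each stage with edgeR's quasi-likelihood test over all 12 libraries. The fit without a replicate term called 2.75% of tested genes in embryonic stroma and 0.606% in adult stroma at an adjusted p under 0.05. Of the 9 members, 1 passed in embryonic stroma (Mmp13) and 0 in adult stroma, where 79 genes passed in all, 727 genes had an unadjusted p under 0.05, and DESeq2 called 2 members (Mmp9 and Mmp13). PBS and LPS libraries of the same replicate number and stage deviated together across genes, and a fit with the replicate number within stage as a term (replicate block) called 12.5% of genes in embryonic and 6.2% in adult stroma. With the replicate block, 5 of 9 members rose in each stage, namely Mmp3, Mmp9, Mmp10, Mmp13 and Timp1, and none fell. Mmp3 was open to this test only through its high adult LPS level. The median log2 fold change of the members was 1.15 in embryonic and 1.36 in adult stroma with the block, against medians over all genes of 0.00127 and -0.00895. Because the members were chosen with earlier results of these data known, the count and the median describe them and do not test the set. DESeq2 with the same block, an alternative added after the data were seen, also called 5 members in each stage. Of 13038 genes it called 1852 in embryonic and 1029 in adult stroma.

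**Figure D2:**
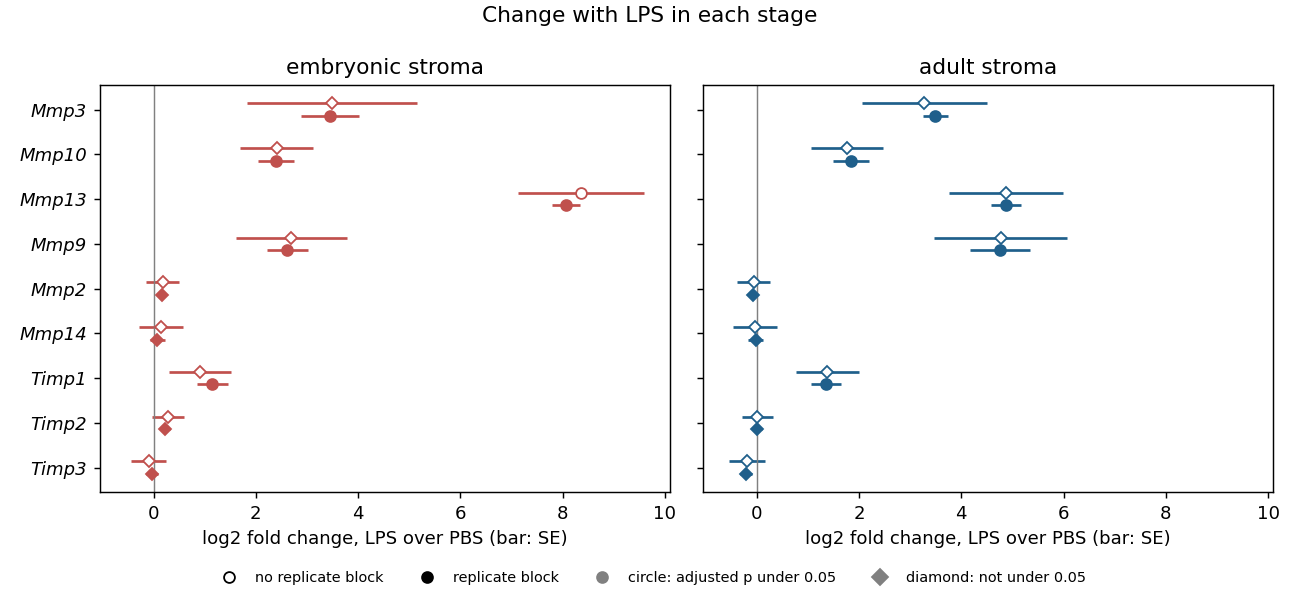
Change of each member with LPS on the log2 scale, with its SE as a bar, in embryonic (left) and adult (right) stroma. Open symbols are the fit without a replicate block and filled symbols the fit with it, and circles mark an adjusted p under 0.05. The estimates of both fits lie close together and the block narrows the errors, as for Mmp13 in embryonic stroma, where the SE went from 1.23 to 0.271.

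Mmp13, the main interstitial collagenase of rodents, had the widest change. It stood at 0.663, 1.65 and 3.77 CPM in embryonic PBS replicates 1 to 3 and at 118, 299 and 1585 CPM in the LPS libraries of the same numbers. In adult stroma it stood at 0.513, 1.45 and 0.307 CPM with PBS and at 15.0, 34.5 and 14.1 CPM with LPS. The groups did not overlap in either stage, and every embryonic LPS library was above every adult LPS library. In embryonic stroma Mmp13 rose by 8.36 on the log2 scale (SE 1.23, adjusted p = 0.00667, edgeR) without the block and by 8.07 (SE 0.271, adjusted p = 1.08e-06, edgeR) with it. In adult stroma the log2 fold change was 4.87 without the block (SE 1.12, adjusted p = 0.119, edgeR), which did not pass, and 4.88 with it (SE 0.291, adjusted p = 6.65e-05, edgeR). The embryonic call held without the block when any 1 of the 12 libraries was left out (adjusted p from 0.0031 to 0.0476). It was lost when only the 6 embryonic libraries were fitted, where 4 genes passed in all.

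The Mmp13 response also differed between the stages when that difference was itself tested with the block. Each same-numbered pair gave a log2 difference of 7.33, 7.45 and 8.69 in embryonic stroma and of 4.70, 4.51 and 5.23 in adult stroma. The interaction of stage and LPS called 0% of genes without the block in edgeR (293 genes at an unadjusted p under 0.05, smallest adjusted p 0.968). Mmp13 was at 3.49 there (SE 1.44, adjusted p = 1.0). DESeq2 without the block called 25 genes and 0 members, so Mmp13 was not among them. With the block 0.844% of genes passed, and Mmp13 was the one member among them, with a response larger by 3.20 on the log2 scale in embryonic stroma (SE 0.476, adjusted p = 0.0275, edgeR). That call was lost when both libraries of adult replicate 1, 2 or 3 were left out (highest adjusted p 0.243) and held without each embryonic replicate. The size of the difference stayed between 2.59 and 3.54 over these 6 fits, which were added after the data were seen.

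Macrophage markers moved with Mmp13 among the embryonic LPS libraries. Replicate 3, with the highest Mmp13 level, also had the highest macrophage sum (1299 CPM), and replicate 1 had the lowest of both (134 CPM). Between PBS and LPS the macrophage sum went down in replicates 1 and 3 and up in replicate 2, and 0 of the 11 tested macrophage markers were called with LPS without the block, with Ptprc called higher and Cx3cr1 lower with it. Without both libraries of embryonic replicate 3, Mmp13 still rose by 7.45 with LPS in embryonic stroma (adjusted p = 1.38e-07, edgeR with the block) and by 2.59 more than in adult stroma (adjusted p = 0.00467). In adult LPS libraries the order was different, since Mmp13 was highest in replicate 2 (34.5 CPM), where the macrophage sum was 44.3 CPM against 97.3 CPM in replicate 1. Whether macrophages carried part of the Mmp13 level was not tested.

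**Figure D3:**
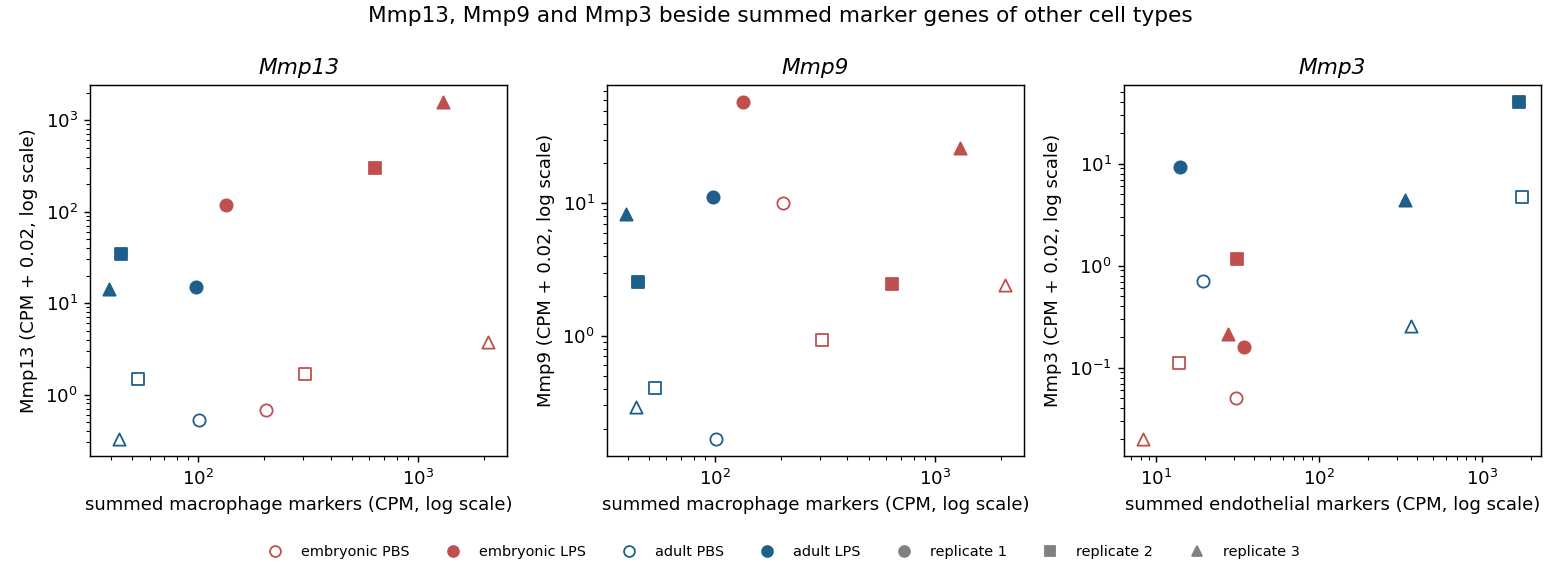
Mmp13 and Mmp9 against the summed level of 11 macrophage markers, and Mmp3 against the summed level of 5 endothelial markers, 1 point a library (log axes, CPM, with 0.02 added to the member's level). Among embryonic LPS libraries Mmp13 and the macrophage sum share their order, and Mmp9 is highest at a macrophage sum of 134 CPM. Mmp3 is highest in adult replicate 2, where endothelial markers sum to 1681 CPM with LPS and 1750 CPM with PBS. Among adult libraries of a treatment it is lowest in replicate 3, at endothelial sums of 337 CPM with LPS and 365 CPM with PBS.

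The stromelysins Mmp3 and Mmp10 rose with LPS from different starting points. Mmp3 was nearly silent in embryonic PBS cultures, with 1, 3 and 0 counts, and had 4, 33 and 5 counts with LPS. The pooled embryonic counts (42 against 4) gave a ratio of 12.5 with a 95% exact interval of 4.55 to 48.2, which covers counting error only. In adult stroma Mmp3 went from 0.696, 4.72 and 0.239 CPM to 9.18, 40.4 and 4.36 CPM. Adult replicate 2 was the highest in both treatments, and its PBS library exceeded the lowest LPS library, so that the adult groups overlapped although each pair rose by 8.56-fold to 18.3-fold.

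With the block, the log2 fold change of Mmp3 was 3.45 in embryonic (SE 0.563, adjusted p = 0.00637, edgeR) and 3.49 in adult stroma (SE 0.243, adjusted p = 0.000174, edgeR). Without it the values were 3.48 (adjusted p = 0.522) and 3.28 (adjusted p = 0.591), which did not pass. Since Mmp3 entered the test only through adult LPS libraries, it had to be higher there, and its calls are given as a description. The interaction for Mmp3 with the block was -0.04 (SE 0.299, adjusted p = 0.989). The embryonic call was lost without both libraries of replicate 2, the culture with 33 of the 42 LPS counts (adjusted p = 0.105, edgeR with the block), while the log2 fold change stayed between 3.14 and 3.76 over the 6 fits that each left out a culture. Adult replicate 2, with the highest Mmp3, was also the culture with the most endothelial marker signal. It also had the highest glial and neuronal and the lowest fibroblast marker sums of the adult cultures. Replicate 3 had a higher endothelial sum than replicate 1 with LPS (337 against 13.9 CPM) but less Mmp3 (4.36 against 9.18 CPM). With PBS the order was the same (365 against 19.5 CPM, and 0.239 against 0.696 CPM of Mmp3). Without the libraries of adult replicate 2 the adult change of Mmp3 was 3.88 (adjusted p = 0.00235, edgeR with the block). Whether endothelial or other cells carried part of the Mmp3 level was not tested.

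Mmp10 went from 10.5, 2.13 and 3.98 CPM to 34.9, 8.22 and 44.8 CPM in embryonic stroma and from 3.22, 4.58 and 1.47 CPM to 12.2, 11.4 and 7.82 CPM in adult stroma. The adult groups did not overlap, and the embryonic groups did, through the low LPS level of replicate 2. With the block it rose by 2.39 (SE 0.347, adjusted p = 0.00359, edgeR) in embryonic and by 1.85 (SE 0.359, adjusted p = 0.0244, edgeR) in adult stroma. Without the block neither passed in edgeR (log2 fold change 2.41, adjusted p = 0.141 and 1.77, adjusted p = 0.695). The embryonic change passed there when embryonic LPS replicate 2 was left out (adjusted p = 0.0431), and DESeq2 without the block called it as well. The adult call with the block was lost without adult replicate 1, 2 or 3 (highest adjusted p 0.181).

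The gelatinases behaved differently from each other. Mmp9 (gelatinase B, an inducible enzyme of leukocytes and stroma) was at 10.1, 0.915 and 2.42 CPM in embryonic PBS and at 58.4, 2.45 and 26.2 CPM in embryonic LPS libraries. In adult stroma it was at 0.147, 0.385 and 0.273 CPM with PBS, from 4, 8 and 8 counts, and at 11.1, 2.52 and 8.34 CPM with LPS. It was higher with LPS in all 3 pairs of both stages, and the adult groups did not overlap. The replicate that was highest in a stage differed from Mmp13, since Mmp9 was highest in replicate 1 of both LPS groups. Replicate 1 had the lowest macrophage sum of the embryonic LPS libraries (134 CPM) and the highest of the adult LPS libraries (97.3 CPM), and the part of macrophages in the Mmp9 level was not tested. With the block Mmp9 rose by 2.62 in embryonic (SE 0.407, adjusted p = 0.00506, edgeR) and by 4.76 in adult stroma (SE 0.582, adjusted p = 0.0029, edgeR). Both calls held without each culture in turn, with a highest adjusted p of 0.0454 in embryonic and 0.0477 in adult stroma. Without the block neither passed (adjusted p = 0.361 and 0.222). The response was smaller by 2.14 in embryonic stroma in the interaction with the block (SE 0.763), which did not pass (adjusted p = 0.442).

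Mmp2 (gelatinase A, a constitutive product of mesenchymal cells) was abundant and nearly level, at 497, 466 and 272 CPM in embryonic PBS against 518, 575 and 304 CPM in embryonic LPS libraries. Adult libraries were at 317, 212 and 353 CPM with PBS and at 303, 199.8 and 343 CPM with LPS. With the block its log2 fold change was 0.17 in embryonic (SE 0.067, adjusted p = 0.146, edgeR) and -0.07 in adult stroma (SE 0.0671, adjusted p = 0.714, edgeR). Mmp14, the membrane-type activator of proMMP2, was at 1083, 536 and 707 CPM in embryonic PBS, 1144, 409 and 1020 CPM in embryonic LPS, 1107, 558 and 985 CPM in adult PBS and 1082, 557 and 958 CPM in adult LPS libraries. Replicate 2 was the lowest in each of the 4 groups, as it was for the fibroblast marker sum, and a link between them was not tested. The log2 fold change of Mmp14 with the block was 0.07 in embryonic (SE 0.147, adjusted p = 0.819, edgeR) and -0.02 in adult stroma (SE 0.146, adjusted p = 0.966, edgeR).

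Timp1, the inducible and secreted inhibitor, was the member of its family that rose with LPS. Its level went from 72.2, 249 and 41.4 CPM to 117, 367 and 197 CPM in embryonic stroma and from 266, 167 and 198 CPM to 675, 364 and 601 CPM in adult stroma. Embryonic libraries overlapped, since PBS replicate 2 exceeded 2 of the LPS libraries, and adult libraries did not. The paired changes were 1.62-fold, 1.47-fold and 4.76-fold in embryonic and 2.53-fold, 2.18-fold and 3.03-fold in adult stroma. With the block Timp1 rose by 1.15 in embryonic (SE 0.297, adjusted p = 0.0425, edgeR) and by 1.36 in adult stroma (SE 0.289, adjusted p = 0.0337, edgeR). Without the block the values were 0.91 (adjusted p = 0.783) and 1.38 (adjusted p = 0.894). Both Timp1 calls with the block were lost without embryonic replicate 1 or adult replicate 1, 2 or 3, with highest adjusted p of 0.09 in embryonic and 0.263 in adult stroma. Without embryonic replicate 3 the embryonic change was 0.60 (adjusted p = 0.0159).

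Timp2, which both inhibits MMPs and takes part in proMMP2 activation by MMP14, was at 1189, 1799 and 1020 CPM in embryonic PBS and 1231, 2505 and 1145 CPM in embryonic LPS libraries. Adult libraries were at 2022, 1789 and 1741 CPM with PBS and at 2209, 1670 and 1723 CPM with LPS. The change with the block was 0.23 (SE 0.0952, adjusted p = 0.167, edgeR) in embryonic and 0.00 (SE 0.095, adjusted p = 0.992, edgeR) in adult stroma. Timp3, the matrix-bound inhibitor that also acts on ADAM proteases, was at 1082, 2290 and 1140 CPM in embryonic PBS and at 1230, 1762 and 1233 CPM in embryonic LPS libraries. In adult stroma it was at 5299, 3122 and 4698 CPM with PBS and 4702, 2512 and 4237 CPM with LPS, lower in each LPS library than in its partner. The change with the block was -0.03 in embryonic (SE 0.113, adjusted p = 0.919, edgeR) and -0.21 in adult stroma (SE 0.113, adjusted p = 0.401, edgeR).

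The stages were then compared at the same treatment, where 4.08% of genes passed with PBS and 5.31% with LPS. These comparisons share libraries with the LPS comparisons above. They come from the fit over all 12 libraries, which counts same-numbered PBS and LPS libraries as independent. With only the 6 libraries compared, 173 genes passed with PBS and 70 with LPS, and 0 members passed in either treatment. With PBS, 1 of 9 members passed, Timp3, which was lower in embryonic stroma by 1.54 on the log2 scale (SE 0.355, adjusted p = 0.0415, edgeR). With LPS, 2 of 9 passed, Timp3, which was again lower by 1.44 (SE 0.354, adjusted p = 0.046, edgeR), and Mmp13, which was higher by 4.97 (SE 1.04, adjusted p = 0.0273, edgeR). Timp3 levels did not overlap between the stages in either treatment, with a highest embryonic level of 2290 CPM and a lowest adult level of 2512 CPM.

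The Timp3 calls were near the threshold. Neither passed when only the 6 libraries compared were fitted (adjusted p = 0.105 with PBS and 0.0781 with LPS, edgeR). The call with PBS was lost without embryonic PBS replicate 1 or 3, embryonic LPS replicate 1, adult PBS replicate 1, 2 or 3, or adult LPS replicate 1 or 3 (highest adjusted p 0.14). The call with LPS was lost without any 1 of the embryonic LPS, adult PBS or adult LPS libraries (highest adjusted p 0.153), while the log2 difference stayed between -1.98 and -1.36 with PBS and between -1.66 and -1.26 with LPS. The Mmp13 call was lost without embryonic LPS replicate 3, where the difference fell to 3.26 (adjusted p = 0.0519), and without adult LPS replicate 1, 2 or 3 (highest adjusted p 0.123). It was also lost with only the 6 libraries compared (adjusted p = 0.0914, edgeR).

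Mmp3, which the filter kept only for its adult LPS level, did not pass between the stages, with a log2 difference of -5.38 with PBS (SE 1.62, adjusted p = 0.0914, edgeR) and -5.17 with LPS (SE 1.35, adjusted p = 0.0549, edgeR). Its highest embryonic PBS level was 0.0915 CPM and its lowest adult PBS level 0.239 CPM, so that the stages did not overlap. DESeq2 called Mmp3 lower in embryonic stroma in both treatments (adjusted p = 0.00115 with PBS and 0.000245 with LPS), and it called Mmp9 higher with PBS, at 4.08 (adjusted p = 0.00172). Mmp9 was at 4.07 in edgeR (SE 1.28, adjusted p = 0.104). Without adult PBS replicate 2, the Mmp3 difference with LPS passed in edgeR as well (adjusted p = 0.0407). Mmp2, Mmp10, Mmp14, Timp1 and Timp2 did not pass between the stages in either treatment or in either tool.

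Summed per kb of exon, the 6 enzymes gave 430, 282 and 262 CPM per kb in embryonic PBS replicates 1 to 3 and 524, 403 and 970 CPM per kb in the LPS libraries. The 3 inhibitors gave 631, 1251 and 563 CPM per kb with PBS and 724, 1462 and 792 CPM per kb with LPS. The ratio of enzyme to inhibitor transcripts was thus 0.681, 0.225 and 0.465 with PBS and 0.724, 0.276 and 1.23 with LPS, higher with LPS in all 3 pairs. In adult stroma the ratio was 0.188, 0.156 and 0.208 with PBS and 0.161, 0.173 and 0.174 with LPS, higher in 1 of 3 pairs. All adult ratios lay below all embryonic ratios. These sums weigh transcripts alike and were not tested, because the genes were chosen with results in view.

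The composition of each sum also differed between treatments. Mmp13 made up 0.0577% to 0.538% of enzyme transcripts in embryonic PBS and 8.39%, 27.8% and 61.2% in embryonic LPS replicates 1, 2 and 3. In adult LPS libraries it made up 1.48% to 5.36%, and Mmp14 remained the main enzyme transcript at 55.3% to 68.4%. Among the inhibitors, Timp1 went from 13.2% to 15.3% of transcripts in adult PBS to 29.5% to 33.2% in adult LPS libraries. In embryonic stroma it went from 8.29% to 22.5% with PBS to 18.2% to 28.3% with LPS.

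**Figure D4:**
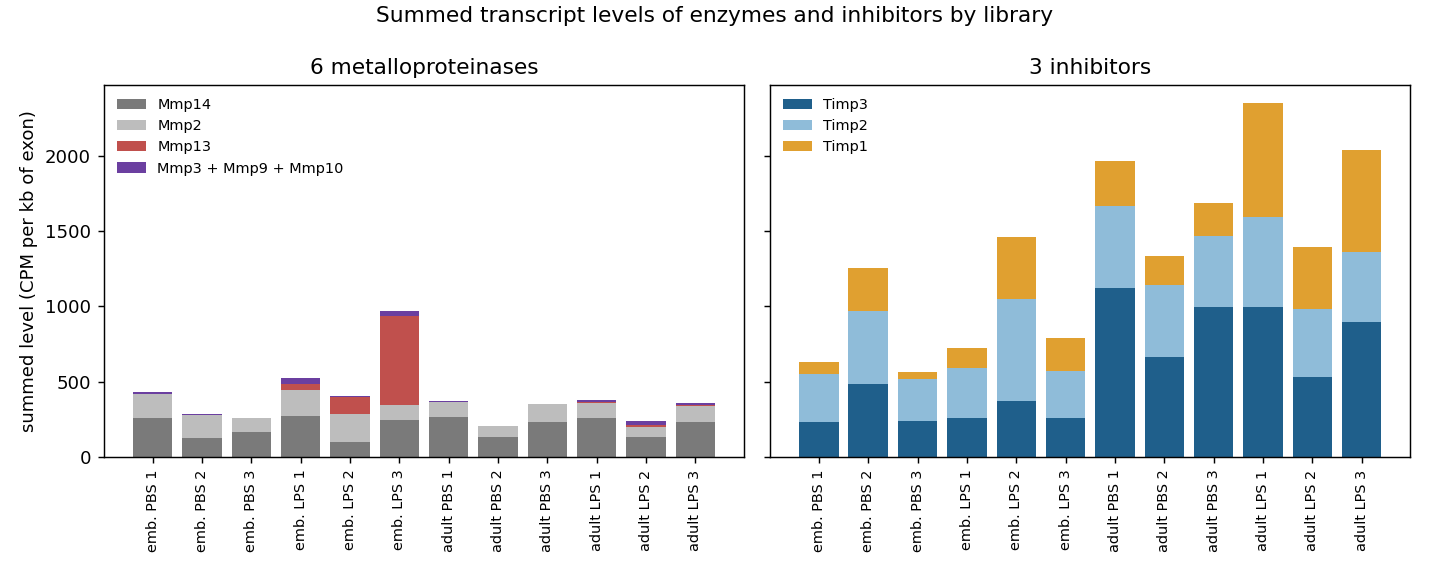
Summed level of the 6 metalloproteinases (left) and of the 3 inhibitors (right) in each library, in CPM per kb of exon on a linear axis from 0, with colours for the single genes. Mmp13 is visible as a share of the enzyme sum in embryonic LPS libraries, up to 61.2% in replicate 3, and Timp1 widens in all LPS libraries.

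Other proteases, inhibitors and activators were taken as lists by name. Of 17 other MMPs 10 were tested, and with the block 3 rose in embryonic stroma (Mmp12, Mmp25 and Mmp28), while in adult stroma 1 rose (Mmp12) and 1 fell (Mmp11). These are 30.0% and 20.0% of the tested list, beside 12.5% and 6.2% of all genes. The median change of this list with the block was 0.18 in embryonic and 0.01 in adult stroma. Mmp12 went from 9.07, 14.0 and 17.3 CPM to 36.3, 41.2 and 86.2 CPM in embryonic stroma (log2 fold change 1.96 with the block, SE 0.15, adjusted p = 0.000106, edgeR) and from 1.32, 0.385 and 0.443 CPM to 4.3, 1.05 and 1.9 CPM in adult stroma (1.76, SE 0.243, adjusted p = 0.00505). It was higher in embryonic than in adult stroma by 4.21 with PBS (SE 0.663, adjusted p = 0.00985, edgeR) and by 4.49 with LPS (SE 0.645, adjusted p = 0.00732, edgeR). The 11 tested macrophage markers had median stage differences of 4.45 with PBS and 4.09 with LPS. Of these, 1 was called higher in embryonic stroma with PBS (Cx3cr1) and 0 with LPS. Mertk went the other way with PBS, at 4.25 to 26.6 CPM in embryonic and 10.5 to 44.4 CPM in adult libraries. With LPS its range was likewise lower in embryonic libraries, at 2.66 to 23.7 CPM against 4.82 to 37.0 CPM in adult libraries. The part of macrophages in the Mmp12 level was not tested. Mmp25, a membrane-type MMP known from leukocytes, also passed without the block in embryonic stroma at 4.50 (SE 0.996, adjusted p = 0.0422, edgeR), with 6, 5 and 8 counts in PBS and 62, 32 and 257 counts in LPS libraries. It passed the filter only through the LPS groups, so that it was tested only because it was high there. Mmp28 rose by 0.70 (adjusted p = 0.0475, edgeR with the block), and Mmp11 fell by 0.72 in adult stroma (adjusted p = 0.039, edgeR with the block).

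Of 12 genes of MMP activation and the plasminogen system 11 were tested, and with the block 4 rose in each stage, Plau, Plat, Serpinb2 and Lcn2, while 0 passed without it. This is 36.4% of the tested list in each stage, beside 12.5% and 6.2% of all genes, but Serpinb2 and Lcn2 passed the filter only through the LPS groups. Plau and Plat encode the urokinase and tissue plasminogen activators, whose product plasmin can activate proMMPs. Plau went from 67.2, 64.0 and 89.0 CPM to 199.9, 129 and 158 CPM in embryonic stroma (log2 fold change 1.14 with the block, adjusted p = 0.0296, edgeR) and from 119, 65.2 and 91.9 CPM to 664, 128 and 406 CPM in adult stroma (1.88, adjusted p = 0.00662). Plat rose by 0.84 in embryonic (adjusted p = 0.0308, edgeR with the block) and by 1.56 in adult stroma (adjusted p = 0.00363). Serpinb2, which inhibits plasminogen activators, rose by 3.15 in embryonic (adjusted p = 0.007, edgeR with the block) and by 4.83 in adult stroma (adjusted p = 0.000605). Lcn2, lipocalin 2, whose protein can bind MMP9, had 0 counts in all embryonic PBS libraries and 39, 51 and 328 counts in embryonic LPS libraries (adjusted p = 0.000917, edgeR with the block), and it rose by 3.79 in adult stroma (adjusted p = 0.00282). The membrane-anchored inhibitor Reck was not called in either stage, at 49.8 to 62.3 CPM in embryonic PBS and 49.9 to 90.8 CPM in embryonic LPS libraries, and Timp4 did not reach the filter.

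Of 18 ADAMTS proteases 13 were tested, and with the block 1 rose in embryonic (Adamts4) and 3 rose in adult stroma (Adamts4, Adamts7 and Adamts9). These are 7.69% and 23.1% of the tested list, so that the embryonic share was below that of all genes (12.5%) and the adult share above it (6.2%). Adamts4, an aggrecanase, went from 7.56, 4.63 and 6.1 CPM to 29.7, 31.2 and 96.8 CPM in embryonic stroma, where it passed without the block at 3.11 (SE 0.505, adjusted p = 0.0104, edgeR). In adult stroma it went from 15.6, 7.81 and 8.76 CPM to 83.1, 45.2 and 66.0 CPM, at 2.62 with the block (SE 0.322, adjusted p = 0.00298, edgeR) and at 2.59 without it (adjusted p = 0.052). Adamts9 went from 14.2, 10.1 and 7.5 CPM to 32.5, 28.5 and 23.9 CPM in adult stroma (1.42 without the block, SE 0.242, adjusted p = 0.0315, edgeR), while embryonic libraries were at 15.6 to 22.7 CPM with PBS and 15.6 to 20.1 CPM with LPS. Its interaction with the block was -1.62 (SE 0.166, adjusted p = 0.0055, edgeR), with a larger response in adult stroma, opposite in direction to that of Mmp13. Adamts7 rose by 0.66 in adult stroma (adjusted p = 0.0338, edgeR with the block). Of 9 ADAM proteases 8 were tested, and 1, the TNF-releasing sheddase gene Adam17, rose in embryonic stroma by 0.64 (adjusted p = 0.00196, edgeR with the block) with 0 called in adult stroma. The embryonic share of 12.5% equals that of all genes.

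Genes whose log2 levels followed each member most closely over the 12 libraries were listed by Pearson's r among all tested genes, as a description. The libraries share groups, cultures and depth, so that r is not a measure of independent agreement. Mmp13 was most like Cmpk2 (r = 0.991), Ccrl2 (0.986) and Cd274 (0.981), and Mmp3 was most like Vegfc (0.954), Rassf9 (0.932) and Chi3l1 (0.924). Mmp10 was most like Ube4b (0.962), Gramd1a (0.928) and Spata2 (0.921), and Mmp9 was most like Tnfsf4 (0.946), 5330437I02Rik (0.940) and Nrip1 (0.936). For Mmp14 these genes were Sept11 (0.969), Itga1 (0.960) and Itga5 (0.959), and for Mmp2 they were Lman1 (0.949), Gpc4 (0.948) and Dcaf10 (0.946). Timp1 was most like Ddr1 (0.961), Cd2ap (0.956) and Ubxn2a (0.954), Timp2 was most like 1500003O03Rik (0.989), Bcap31 (0.974) and Fah (0.972), and Timp3 was most like 1500015O10Rik (0.989), Figf (0.980) and Socs5 (0.976). No member appeared among the genes of another, because members were left out of the search.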

How the data were processed

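RNA was measured by poly(A) stranded RNA-seq (75-base single-end reads) in 12 libraries. Per the study's methods, the authors trimmed reads with Trim Galore, aligned them with STAR to GRCm38 with at most 1 mismatch, kept unique alignments and counted per gene. The deposited files hold raw counts per gene, not normalized, for either strand and for each strand. The strand that carries the genes was used. No per-sample column was left unmatched (0).

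Genes that exceeded 0.5 CPM in each of the 3 libraries of some group were tested with edgeR 4.0.16 (quasi-likelihood, TMM factors, R 4.3.3, limma 3.58.1), all 4 groups in 1 model, with Benjamini-Hochberg adjustment over 13038 genes and calls at an adjusted p under 0.05. SE was derived from F. Alternatives were other scalings, filters, strands, folds, libraries, DESeq2 1.42.0 and replicate blocks. Scripts were tested on simulated data.

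Same-numbered PBS and LPS libraries of a stage had deviations from group means that correlated at 0.61 to 0.85 (6 pairs), so the replicate numbers were taken to pair them, although the labels do not state a shared culture. Across stages same-numbered libraries correlated at -0.31 to -0.0022. No 2 replicates agreed within counting noise. Raw counts of 18850224 to 32672370 per library mean that Poisson error is small except for genes of a few counts. With the block, p-values are set against the spread of the LPS change between replicates. Without it they are set against the spread between libraries of a group, and same-numbered PBS and LPS libraries count as independent.

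Log2 levels for likeness used a prior count of 2. Exon length is the union of protein-coding exons in GENCODE M21 (GRCm38). Promoters and gene positions came from RefSeq. The members and gene lists were chosen with earlier results of these data known. All 9 members are named. From the other lists, genes were named up to 10 per LPS comparison by size of change among those called with or without the block (9 in each stage), and 3 like genes per member by r.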

Additional observations from a re-analysis of the deposited data

Results flagged for a closer look

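Mmp13 was noted because its response to LPS differed between the stages in the test of that difference, with an interaction of 3.20 on the log2 scale with the replicate block (adjusted p = 0.0275, edgeR). Without the block it was 3.49 and did not pass (adjusted p = 1.0), and with the block it did not pass once a single adult culture was left out (adjusted p up to 0.243).

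Mmp2 was noted because its 3 embryonic pairs moved up with LPS, by 0.06, 0.30 and 0.16 on the log2 scale, while its 3 adult pairs moved down, by -0.07, -0.09 and -0.04. The interaction with the block was 0.24 (SE 0.0948, edgeR), which did not pass (adjusted p = 0.503).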

How the results depend on the processing

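Members called were counted anew under each alternative. RLE size factors, library totals, no filter, edgeR's own filter and either-strand counts left all 5 counts as they were. DESeq2 called 2 members in embryonic and 2 in adult stroma with LPS and 3 between the stages with PBS. A log2 fold change of at least 2 left 0 between the stages with PBS and 1 with LPS. The replicate block within stage called 5 members with LPS at each stage and 1 in the interaction, and a block across stages, where numbers do not pair libraries, called 2 and 1 with LPS. Between the stages the block across stages kept the counts and changed a member, since Timp3 did not pass (adjusted p = 0.0542 with PBS and 0.0592 with LPS) and Mmp3 did (adjusted p = 0.00169 and 0.000731). With only the 6 libraries compared, the LPS calls numbered 0 (embryonic) and 2 (adult), and those between the stages 0 in either treatment. Leaving out 1 library gave 1 to 2 in embryonic stroma, 0 to 1 in adult stroma, 0 to 0 in the interaction, 0 to 1 between the stages with PBS and 0 to 2 with LPS. With the block, leaving out a culture gave 4 to 5 (embryonic), 3 to 5 (adult) and 0 to 1 (interaction). No called member changed sign. The cause of these differences was not tested.

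Over all genes, the counts were 358 in embryonic stroma, 79 in adult stroma, 0 in the interaction, 532 with PBS and 692 with LPS. DESeq2 gave 684, 294, 25, 1552 and 1704. The block within stage gave 1636, 808 and 110, and without a culture 1049 to 1989, 232 to 1243 and 34 to 164. The block across stages gave 891 and 1059 between the stages. The fold minimum gave 55 in adult stroma, 291 with PBS and 385 with LPS beside 251 in embryonic stroma. The 6 libraries alone gave 4, 227, 173 and 70, and leaving out 1 library 95 to 471, 4 to 145, 0, 152 to 638 and 132 to 814. Depth limits Mmp3 in embryonic PBS libraries, with at most 3 counts each.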
